A study of Mus musculus with 4 samples.

Results

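Sperm take up calcium, pass potassium and export protons through a small set of flagellar channels and exchangers, and 9 genes of that set were followed here by their symbols in a table of 31600 features. They comprise 6 subunit genes of CatSper, the calcium channel of the sperm tail (Catsper1, Catsper2, Catsper3, Catsper4, Catsperb and Catsperd), the potassium channel gene Kcnu1 (Slo3), the sperm sodium-proton exchanger gene Slc9c1 and the proton channel gene Hvcn1. All 9 had a row in the table. RNA came from mouse cells that the labels call spermatogonial stem cells, the cells that sustain sperm production, in a differentiation group (2 libraries, whose genotype field reads Differentiation) and a control group (2 libraries, whose genotype field reads WT). The labels name no strain, age, inducing agent or time. They also leave unsaid whether replicate libraries began as different cultures or animals, so p-values measure only the spread between these libraries, which may be technical.

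CatSper opens when the sperm interior becomes alkaline, and the calcium that enters drives the whip-like hyperactivated beat; mice that lack a pore subunit are infertile. The CatSper1 to CatSper4 proteins line the pore, and further subunits, among them those made from Catsperb and Catsperd, form a canopy over it or lie beneath it. Slo3 carries the potassium current that hyperpolarizes sperm, Slc9c1 exchanges sodium for protons, and the Hvcn1 protein lets protons leave the cell along the voltage across the membrane. In the mouse testis Catsper2 transcripts are known from meiotic spermatocytes, and those of Catsper1, Catsper3 and Catsper4 from the later spermatids.

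Libraries were made from long RNA depleted of ribosomal RNA. Levels are the authors' deposited FPKM, fragments scaled by exon length and by library size, a scale on which genes of different length can be compared. Multiplying FPKM by exonic length gave whole fragment numbers for most features (96.2% of those under 300 fragments, within 0.05), from which the library scales were 17771900 and 20363300 fragments in differentiation and 19461600 and 20650100 in control. In the same libraries the 15 meiotic prophase markers summed to 997 and 1014 FPKM in differentiation, against 239 and 243 FPKM in control, and the 14 markers of undifferentiated spermatogonia to 57.2 and 56.9 FPKM in differentiation, against 162 and 165 FPKM in control. The meiotic sum was higher and the spermatogonial sum lower in differentiation, and in bulk RNA a change in the number of cells of a type and a change in RNA per cell cannot be told apart. Features were tested with limma on log2(FPKM + 1) where their mean over the 4 libraries reached 0.5 FPKM, and a fold change on that scale understates the change of low genes.

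Of the 9 genes, Catsper2, Catsperb, Catsperd, Slc9c1 and Hvcn1 rose in differentiation and none fell (limma adjusted p under 0.05). Of the 23138 features tested, 29.6% rose and 27.0% fell, and these shares are the background for the counts of each list below. Kcnu1 was tested and not called, and Catsper1, Catsper3 and Catsper4 were too low to be tested. Catsperb and Slc9c1 reached the 0.5 FPKM mean only through their differentiation libraries, so they had to differ in order to be tested, and the count of 5 is a description of the set. Over all 9 genes, 6 had both differentiation libraries above both control libraries, as did 38.5% of all 31600 features, and 1 had both below, as did 36.1% of all features. The median log2 fold change of all 9, with no filter, was 0.81, beside 0.01 for all features.

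**Figure D1:**
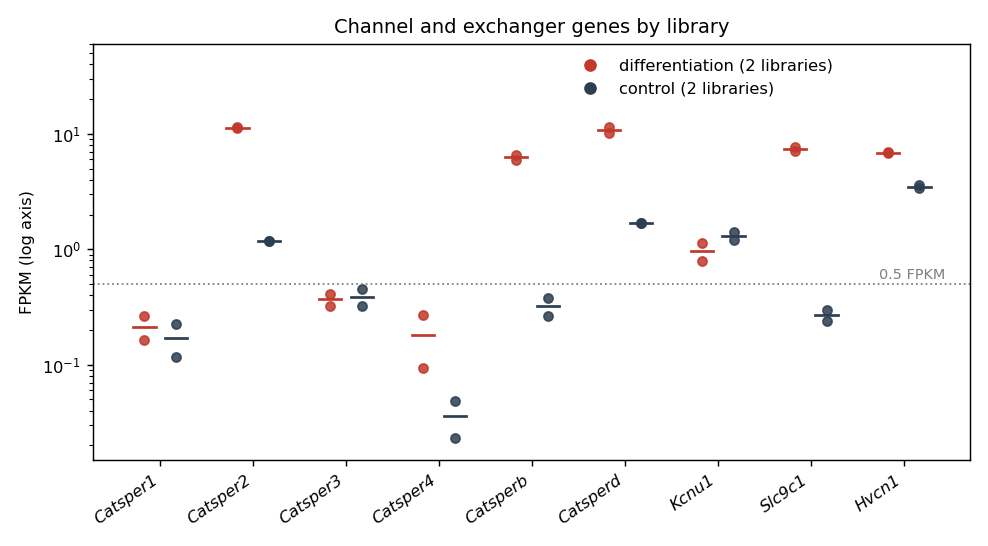
FPKM of the 9 genes on a log axis, with 1 point per library and a bar at the group mean (differentiation left, control right for each gene; the dotted line is the 0.5 FPKM mean needed for testing). Catsper2, Catsperd, Slc9c1, Hvcn1 and Catsperb lay between 5.95 and 11.4 FPKM in differentiation, while Catsper1, Catsper3 and Catsper4 lay below 0.5 FPKM in all libraries.

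Of the 4 pore-forming subunits, Catsper2 rose, and no difference was detected for the other 3. Catsper2 had 11.4 and 11.3 FPKM in the differentiation libraries, against 1.18 and 1.18 FPKM in the control libraries. Its group means were 11.3 ± 0.0730 FPKM in differentiation and 1.18 ± 0.00177 FPKM in control (SD, n = 2 each), and its log2 fold change was 2.50 (SE 0.06; limma adjusted p = 1.26e-04). These levels rest on 746 and 847 fragments in differentiation and on 85 and 90 in control. The differentiation libraries were far above the control libraries, and the replicates of each group nearly coincided. Counting error alone allows 10.8 to 11.9 FPKM in differentiation and 1.01 to 1.37 FPKM in control (exact Poisson 95% intervals over the summed fragments). The SDs are smaller than that and understate the uncertainty of the levels. Catsper2 (ENSMUSG00000033486) lies on the minus strand at chr2:121392631-121413792 in GRCm38, with 3695 exonic bases in GENCODE M21, of which 18 are shared with Pdia3 on the other strand.

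Catsper1, whose histidine-rich amino-terminal stretch is linked to the channel's pH sensing, had 0.164 and 0.262 FPKM in differentiation, against 0.224 and 0.117 FPKM in control. The groups overlapped. Its 6 and 11 fragments in differentiation and 9 and 5 in control allow a level of 0.126 to 0.346 FPKM in differentiation and 0.0926 to 0.284 FPKM in control (exact Poisson 95% intervals over the summed fragments, counting error only). The exonic length in GENCODE M21 gave no whole fragments for this gene, and a length of 2061 bases was fitted in place of 2188. Catsper1 (ENSMUSG00000038498) lies at chr19:5335741-5344280 on the plus strand.

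Catsper3 had 0.413 and 0.325 FPKM in differentiation, against 0.453 and 0.320 FPKM in control, from 10 and 9 fragments in differentiation and 12 and 9 in control. Its groups overlapped as well, and the intervals were 0.220 to 0.572 FPKM in differentiation and 0.238 to 0.588 FPKM in control. Catsper4 had 0.268 and 0.0935 FPKM in differentiation, against 0.0489 and 0.0230 FPKM in control. Both differentiation libraries were above both control libraries, but on 10 and 4 fragments in differentiation and 2 and 1 in control. Its intervals were 0.0955 to 0.293 FPKM in differentiation and 0.00734 to 0.104 FPKM in control, so that they met. Catsper3 (ENSMUSG00000021499) lies at chr13:55784568-55808998 on the plus strand, and Catsper4 (ENSMUSG00000048003) at chr4:134211970-134227383 on the minus strand.

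With the filter on low values left out, these 3 genes gave log2 fold changes of 0.05 for Catsper1, -0.02 for Catsper3 and 0.18 for Catsper4 (limma adjusted p = 0.638, 0.888 and 0.155). On the recovered fragments, limma-voom gave 0.36 for Catsper1, -0.06 for Catsper3 and 1.86 for Catsper4, with standard errors of 0.61, 0.53 and 0.97 (limma adjusted p = 0.649, 0.937 and 0.110). Neither fit called a difference for any of the 3 at this depth, although the ratio of mean FPKM of Catsper4 was 5.02, on few fragments. The upper limits of the 3 genes in differentiation, 0.346, 0.572 and 0.293 FPKM, lie far under the 10.8 FPKM that is the lower limit of Catsper2.

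Catsper2 gave 93.1% and 94.3% of the summed FPKM of the 4 pore genes in differentiation, against 61.9% and 71.9% in control. Catsper1, Catsper3 and Catsper4 together summed to 0.845 and 0.680 FPKM in differentiation, against 0.726 and 0.461 FPKM in control. The share of Catsper2 was higher in both differentiation libraries. With 2 libraries against 2 an exact two-sided permutation test cannot go below p = 0.333.

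**Figure D2:**
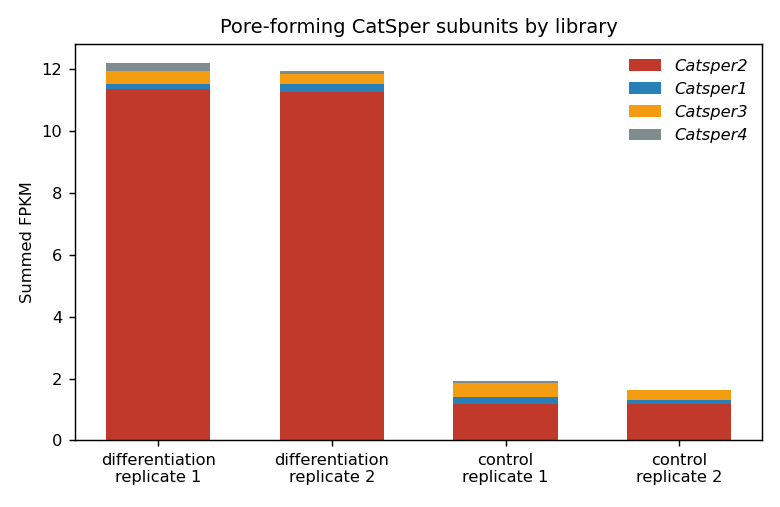
Stacked FPKM of the 4 pore-forming CatSper genes in each library (bars start at 0). The bars of the differentiation libraries reach 12.2 and 11.9 FPKM, against 1.91 and 1.64 FPKM in the control libraries, and almost all of the difference is Catsper2.

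The accessory subunits among the 9 genes rose too. Catsperb, which encodes a membrane subunit of the canopy, had 5.95 and 6.61 FPKM in differentiation, against 0.381 and 0.263 FPKM in control. Both differentiation libraries were far above control, on 584 and 744 fragments in differentiation and 41 and 30 in control. The log2 fold change was 2.46 (SE 0.11; limma adjusted p = 3.01e-04), and the ratio of mean FPKM was 19.5. Catsperb (ENSMUSG00000047014) lies at chr12:101404653-101626009 on the plus strand. Of its transcript 50-mers, 9.27% also occur in Gm18795, a transcribed pseudogene, which itself had 2.53 and 2.80 FPKM in differentiation, against 0 and 0.0545 FPKM in control. The labels do not say how fragments were divided between such copies, so the level of Catsperb is uncertain by that stretch.

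Catsperd, another membrane subunit of the canopy and needed for a stable channel in mouse sperm, had 11.4 and 10.1 FPKM in differentiation, against 1.70 and 1.70 FPKM in control. Its mean was 10.7 ± 0.887 FPKM in differentiation and 1.70 ± 0.00255 FPKM in control (SD, n = 2 each), and it rose by 2.12 on the log2 scale (SE 0.08; limma adjusted p = 2.28e-04). Counting error alone allows 1.495 to 1.928 FPKM for Catsperd in control (exact Poisson 95% interval), so the small SD there understates the uncertainty of the level. The libraries of Catsperd and Catsper2 overlapped in differentiation, and Catsperd was above Catsper2 in control. The ratio of Catsperb to Catsperd was 0.524 and 0.654 in differentiation, against 0.224 and 0.155 in control, higher in both differentiation libraries. Catsperd (ENSMUSG00000040828) lies at chr17:56628143-56664456 on the plus strand and shares no exonic base with another gene.

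The other genes of the complex formed a list of 10, of which 9 were tested and Tmem249 was not analysed here. Of these, 7 rose and 0 fell, with a median log2 fold change of 2.65, beside 0.01 over all tested features. Catsperg2, Catspere1 and Slco6c1 reached the 0.5 FPKM mean only through their differentiation libraries, so they had to differ in order to be tested, and the count of 7 is a description. The canopy genes Catsperg1 and Catsperg2 had log2 fold changes of 2.65 and 3.36, and the paralogs Catspere1 and Catspere2 had 3.74 and 2.23. The cytoplasmic subunit Catsperz rose by 3.78, C2cd6, a C2-domain protein needed for delivery of the channel to the flagellum, by 2.14, and the organic anion transporter Slco6c1, found in the complex, by 3.14 on the same scale. Catspere2 stands in the table as Gm16432 and was matched by its identifier, and Catspere1 is classed there as an unprocessed pseudogene, although RefSeq lists it as protein-coding.

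Catsperg1 had 16.4 and 17.2 FPKM in differentiation, against 1.82 and 1.84 FPKM in control. Catsperg2 had 10.7 and 11.3 FPKM in differentiation, against 0.183 and 0.158 FPKM in control. Catsperg1 was above Catsperg2 in all 4 libraries. Catspere1 had 15.3 and 15.5 FPKM in differentiation, against 0.122 and 0.345 FPKM in control. Catspere2 had 8.77 and 9.03 FPKM in differentiation, against 1.04 and 1.19 FPKM in control, so that it was below Catspere1 in differentiation and above it in control. C2cd6 had 17.2 and 18.2 FPKM in differentiation, against 3.22 and 3.25 FPKM in control.

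The lowest of these 7 in control was Slco6c1, with 8.85 and 7.45 FPKM in differentiation, against 0.0542 and 0.0170 FPKM in control, where it rested on 3 and 1 fragments. Catsperz reached the highest level, with 23.3 and 25.1 FPKM in differentiation, against 0.592 and 1.12 FPKM in control. Of its exonic bases 46.5% are shared with Kcnk4 on the same strand, and Kcnk4 had 0.262 and 0.716 FPKM in differentiation, against 0.449 and 0.282 FPKM in control. Of the transcript 50-mers of Catsperg1, 43.0% occur also in Catsperg2, and 25.1% of those of Catspere1 occur in Catspere2, so the split between these paralogs is uncertain.

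Efcab9 and Tmem262 did not pass the test. Efcab9, the EF-hand calcium sensor that pairs with Catsperz, had 3.67 and 4.14 FPKM in differentiation, against 3.45 and 3.02 FPKM in control (log2 fold change 0.21; limma adjusted p = 0.137). Tmem262, a small membrane subunit, had 1.65 and 2.88 FPKM in differentiation, against 1.23 and 2.22 FPKM in control, and its groups overlapped. On average Efcab9 was at 3.91 FPKM and Catsperz at 24.2 FPKM in differentiation, while Efcab9 was at 3.23 FPKM and Catsperz at 0.854 FPKM in control. Catsperb, Catsperd and the Catsperg, Catspere and Catsperz genes together summed to 91.8 and 94.7 FPKM in differentiation, against 5.83 and 6.61 FPKM in control. That sum leaves out Efcab9 and Tmem262, which were not called, and C2cd6 and Slco6c1. The 9 other genes of the complex, with these included and Catsperb and Catsperd not, summed to 106 and 111 FPKM in differentiation, against 11.7 and 13.15 FPKM in control.

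**Figure D3:**
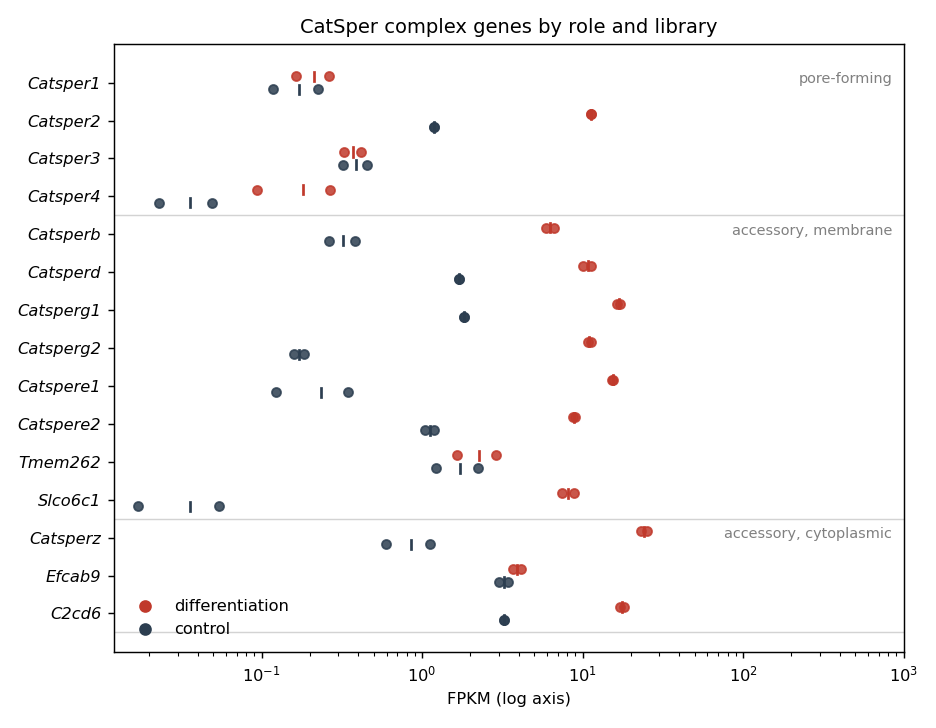
FPKM of 15 CatSper complex genes on a log axis by role, with 1 point per library and a tick at the group mean (differentiation above, control below for each gene). Among the pore-forming genes Catsper2 is far to the right in differentiation and the other pore genes are not; among the accessory genes, Tmem262 and Efcab9 lie close together in both groups.

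RefSeq windows on GRCm38.p6, reaching 250 bases before to 50 after a gene's start, were on hand for Catsper2, Catsper3, Catsper4, Catsperb, Catsperd and Slc9c1, 6 of the 9 genes, with 2 starts for Catsperd. Each was searched on both strands for AACNGTC, the motif of the meiotic factor A-MYB, for TGACG, the core of the cAMP response element bound by CREM, for GTTGCC, a core of the RFX X-box, and for CCGCCC, the GC box. These letters occur in 8.01%, 20.8%, 12.5% and 35.7% of 32851 mouse promoter windows. The 3 windows with a match are shown, 5′ to 3′ on the strand of the gene, with matches in capitals: Catsper2 (chr2:121413743-121414042, minus strand), the upstream start of Catsperd (chr17:56626797-56627096, plus strand) and Slc9c1 (chr16:45535016-45535315, plus strand).
Catsper2: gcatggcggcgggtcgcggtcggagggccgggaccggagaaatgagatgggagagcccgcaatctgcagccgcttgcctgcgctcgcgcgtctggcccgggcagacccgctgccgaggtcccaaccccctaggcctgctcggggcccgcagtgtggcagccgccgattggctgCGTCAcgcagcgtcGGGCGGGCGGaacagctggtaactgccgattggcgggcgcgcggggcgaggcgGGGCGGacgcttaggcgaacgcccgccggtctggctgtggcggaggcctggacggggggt
Catsperd: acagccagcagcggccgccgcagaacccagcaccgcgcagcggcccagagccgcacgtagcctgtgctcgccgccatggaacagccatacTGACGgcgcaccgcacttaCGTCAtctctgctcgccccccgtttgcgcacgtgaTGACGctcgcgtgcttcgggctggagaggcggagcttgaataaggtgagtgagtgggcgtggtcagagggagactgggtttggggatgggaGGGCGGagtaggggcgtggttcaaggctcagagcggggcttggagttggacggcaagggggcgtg
Slc9c1: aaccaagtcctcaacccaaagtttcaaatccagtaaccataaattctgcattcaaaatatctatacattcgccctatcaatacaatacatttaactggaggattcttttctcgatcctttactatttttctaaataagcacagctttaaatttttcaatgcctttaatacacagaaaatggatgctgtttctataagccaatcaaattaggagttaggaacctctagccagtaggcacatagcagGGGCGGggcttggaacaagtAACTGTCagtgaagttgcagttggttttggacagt
Catsper2 held 1 match of the CRE core, at positions -77 to -73 (the start is 0), and 3 of the GC box, the first 2 of which overlap. Pdia3, which shares 18 exonic bases with Catsper2 on the other strand, had 62.8 and 65.2 FPKM in differentiation, against 66.2 and 69.2 FPKM in control. It was not called (limma adjusted p = 0.139), and whether the Catsper2 window also serves Pdia3 was not tested. The upstream Catsperd window held the CRE core at -160, -141 and -106 and a GC box at -15, while the Catsperd window at the GENCODE gene start held none of the motifs. Slc9c1 held the A-MYB letters at 15 to 21 after the start and a GC box at -5. Catsperb, Catsper3 and Catsper4 held none of the motifs, and the X-box core was in none of the windows. The GC box letters were thus in a window of Catsper2, Catsperd and Slc9c1 and the CRE core in one of Catsper2 and Catsperd, while Catsperb, which also rose, had neither. Catsper3 and Catsper4 were too low to be tested. No window was therefore of a tested gene that did not rise, and matches cannot be compared with the rise. Mybl1, which encodes A-MYB, had 28.6 and 29.5 FPKM in differentiation, against 4.97 and 4.51 FPKM in control. Crem had 10.7 and 10.3 FPKM in differentiation, against 2.14 and 2.28 FPKM in control. A match of so few letters is a description of the window, and binding was not measured. A link of Mybl1 or Crem to the genes described here was not tested. Levels of factors that bind the X-box or the GC box are not reported here.

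Slc9c1 had the largest log2 fold change of the 9 genes. This exchanger joins a transport domain to a voltage sensor and a cyclic nucleotide binding domain, and mice without it make sperm that cannot swim. It had 7.05 and 7.72 FPKM in differentiation, against 0.241 and 0.298 FPKM in control, from 508 and 638 fragments in differentiation and 19 and 25 in control. Its mean was 7.38 ± 0.479 FPKM in differentiation and 0.270 ± 0.0408 FPKM in control (SD, n = 2 each). The groups lay far apart, at a log2 fold change of 2.72 with a standard error of 0.10 (limma adjusted p = 1.99e-04), and the ratio of mean FPKM was 27.4. Slc9c1 (ENSMUSG00000033210) lies at chr16:45535309-45607001 on the plus strand, and none of its transcript 50-mers occurs in another gene.

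Other sodium-proton exchanger genes went both ways. Of the 11 in the list 8 were tested, and 4 rose and 3 fell, with a median of 0.16 on the log2 scale beside 0.01 for all tested features. Over all 11 with no filter the median was -0.09, so its sign depends on the filter. Of the 4 that rose, 1 reached the 0.5 FPKM mean only through its differentiation libraries. Slc9b1, an exchanger also known from sperm, had 9.81 and 9.85 FPKM in differentiation, against 4.08 and 4.21 FPKM in control. Slc9a5, a plasma membrane exchanger, had 10.1 and 11.2 FPKM in differentiation, against 3.16 and 3.00 FPKM in control. Slc9a8, the exchanger of the Golgi and acrosome, rose by 0.41 on the log2 scale.

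Kcnu1 did not pass the test. It had 1.14 and 0.788 FPKM in differentiation, against 1.20 and 1.41 FPKM in control. Both differentiation libraries lay below both control libraries, by less than the test could call: the log2 fold change was -0.23 (SE 0.14; limma adjusted p = 0.217). The fragments were 76 and 60 in differentiation and 87 and 109 in control, and limma-voom on these gave -0.48 (limma adjusted p = 0.0550). Kcnu1 was below Slc9c1 in differentiation and above it in control: the ratio of Slc9c1 to Kcnu1 was 6.16 and 9.79 in differentiation, against 0.201 and 0.211 in control. Kcnu1 (ENSMUSG00000031576) lies at chr8:25849623-25937939 on the plus strand, shares no exonic base or 50-mer with another gene, and encodes the pore of a potassium channel that is confined to sperm in mice.

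Lrrc52, the sperm subunit of Slo3, was not analysed here. Of 11 genes of related potassium channels and their subunits, 10 had a row and 5 were tested, of which 2 rose and 2 fell, with a median of 0.11 on the log2 scale. All tested features had a median of 0.01, and 29.6% of them rose and 27.0% fell. Kcnt1, a sodium-activated Slo channel, fell to 1.42 and 1.60 FPKM in differentiation, against 3.70 and 3.66 FPKM in control, and Lrrc55, an auxiliary subunit of the Slo1 channel, fell by 0.77 on the log2 scale. Kcnma1, the Slo1 channel, which reached the 0.5 FPKM mean only through differentiation, and its subunit gene Kcnmb3 rose by 0.41 and 0.40 (limma adjusted p = 0.0313 and 0.0326), and both calls were lost after median centring, after quantile normalization, with a replicate block, and without control replicate 1, control replicate 2 or differentiation replicate 2. Without differentiation replicate 1, 1 gene of the list was called higher.

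Hvcn1 had the highest level of the 9 genes in control. It had 6.76 and 6.97 FPKM in differentiation, against 3.37 and 3.62 FPKM in control, with 428 and 506 fragments in differentiation and 234 and 266 in control. The mean was 6.87 ± 0.152 FPKM in differentiation and 3.49 ± 0.170 FPKM in control (SD, n = 2 each). Both differentiation libraries were above control, at a log2 fold change of 0.81 with a standard error of 0.06 (limma adjusted p = 1.32e-03), the smallest of the 5 increases. Hvcn1 (ENSMUSG00000064267) lies at chr5:122206804-122242297 on the plus strand.

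The exons of Hvcn1 overlap those of Tctn1, a gene of the ciliary transition zone on the minus strand: 1574 of the 3563 exonic bases of Hvcn1, or 44.2%, are exonic in both. Tctn1 had 10.1 and 9.96 FPKM in differentiation, against 2.59 and 2.54 FPKM in control, a log2 fold change of 1.63. The labels do not say whether strand was used in counting. In the shared bases Tctn1 and Hvcn1 fragments cannot be told apart without strand, and the part of Tctn1 in the Hvcn1 value was not tested.

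Hvcn1 is also made in leukocytes, where the proton current sustains the respiratory burst. Of 18 leukocyte markers 14 were tested, and 11 fell and 2, Cd79b and Aif1, rose, while 27.0% of all tested features fell and 29.6% rose. Of the 11, 4 reached the 0.5 FPKM mean only through their control libraries, and Cd79b only through its differentiation libraries. The 2 increases became 1 with a replicate block, after quantile normalization, and without control replicate 1 or control replicate 2, and 0 without differentiation replicate 1 or differentiation replicate 2. At a mean of at least 2 FPKM 6 fell and 0 rose. Their summed level was 24.5 and 23.0 FPKM in differentiation, against 79.0 and 74.3 FPKM in control, and none was at 0 in all libraries. Lyz2, the macrophage lysozyme, fell to 4.45 and 3.88 FPKM in differentiation, against 29.4 and 27.7 FPKM in control. Ptprc, the common leukocyte antigen, had 0.0584 and 0.0402 FPKM in differentiation, against 0.222 and 0.204 FPKM in control. Hvcn1 was higher in the libraries in which the sum of these markers was lower, and the part of leukocytes in its level was not tested.

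**Figure D4:**
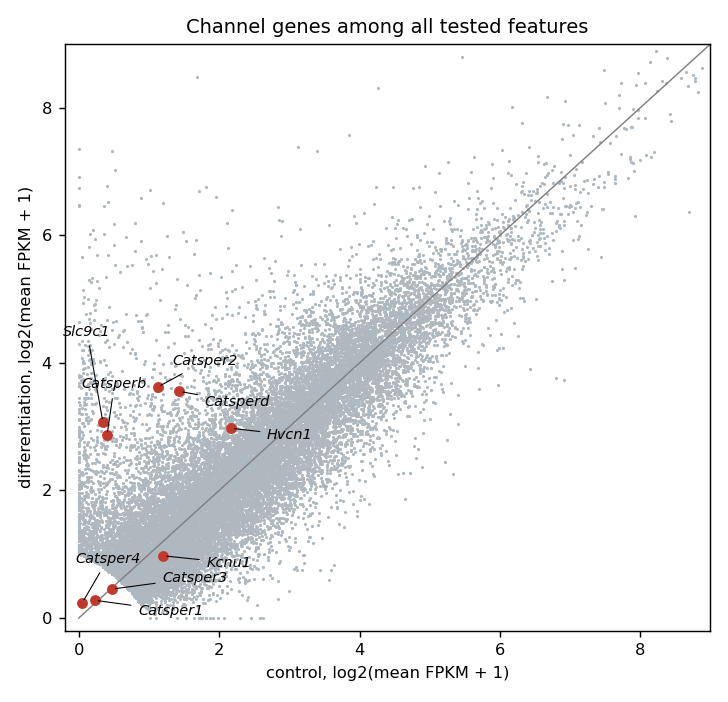
Mean level in control (horizontal) and in differentiation (vertical), both as log2(mean FPKM + 1), for all tested features (grey; a few above 9 lie outside the frame) and the 9 channel and exchanger genes (red); the line marks equal levels. Slc9c1, Catsperb, Catsper2 and Catsperd lie far above the line, Hvcn1 above it, Kcnu1 a little below it and Catsper1, Catsper3 and Catsper4 in the low corner.

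By level, the order in differentiation was Catsper2 (11.3 FPKM), Catsperd (10.7), Slc9c1 (7.38), Hvcn1 (6.87), Catsperb (6.28), Kcnu1 (0.966), Catsper3 (0.369), Catsper1 (0.213) and Catsper4 (0.181). Libraries of neighbours overlapped between Catsper2 and Catsperd and between Catsper1 and Catsper4. The Poisson intervals of Slc9c1 and Hvcn1, of Hvcn1 and Catsperb, and of Catsper3 and Catsper1 overlapped too. The order in control was Hvcn1 (3.49 FPKM), Catsperd (1.70), Kcnu1 (1.30), Catsper2 (1.18), Catsper3 (0.387), Catsperb (0.322), Slc9c1 (0.270), Catsper1 (0.171) and Catsper4 (0.0360), with overlap of libraries from Catsper3 to Catsperb and from Catsperb to Slc9c1. Intervals in control also overlapped between Catsperd and Kcnu1, Kcnu1 and Catsper2, Slc9c1 and Catsper1, and Catsper1 and Catsper4. Among protein-coding features, Catsper2 stood above 77.2% in differentiation and above 33.7% in control, and Slc9c1 above 66.9% in differentiation and 16.6% in control. Catsper1 stood above 12.8% in differentiation and 12.4% in control.

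The protein-coding feature nearest to each tested gene, by Euclidean distance of log2(FPKM + 1) over the 4 libraries, was Stra6 for Catsper2 (distance 0.118), Gm36864 for Catsperb (0.139), Cchcr1 for Catsperd (0.171), Atxn7l1 for Kcnu1 (0.0777), Pnmal1 for Slc9c1 (0.149) and Arl13b for Hvcn1 (0.0516). Stra6, the retinol transporter, had 10.7 and 10.8 FPKM in differentiation, against 1.21 and 1.09 FPKM in control. Arl13b, a small GTPase of cilia, had 6.76 and 6.79 FPKM in differentiation, against 3.47 and 3.55 FPKM in control.

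Genes that act with the sperm channels in bicarbonate, cAMP and calcium signalling formed a list of 27, of which 20 were tested, 11 rose and 4 fell (median 0.26 on the log2 scale, beside 0.01 for all tested features). The 4 that fell were Abhd2, Camk4, Prkar2a and Prkaca, and without control replicate 1, control replicate 2 or differentiation replicate 2 the count was 2. Abhd2, a lipase that relieves inhibition of CatSper in human sperm, had 24.2 and 23.4 FPKM in differentiation, against 45.1 and 45.7 FPKM in control. Ppp3r2, the testis subunit of calcineurin, which reached the 0.5 FPKM mean only through differentiation, had 18.4 and 19.0 FPKM in differentiation, against 0.408 and 0.416 FPKM in control. The calmodulin genes Calm2 and Calm3 rose (limma adjusted p = 1.70e-04 and 1.12e-04). Slc26a8, an anion exchanger of the sperm annulus, rose by 2.53, and Adcy10, the soluble adenylyl cyclase that responds to bicarbonate, by 0.77; both were named after their values were seen. Akap4, the scaffold of the fibrous sheath, was not tested and had 0.0558 and 0.162 FPKM in differentiation, against 0.102 and 0.256 FPKM in control, where its groups overlapped. Other genes too low to be tested went the other way: with no filter 15 of the list were called higher and 4 lower. In that fit 7559 of all 31600 features were called higher and 6648 lower.

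Of 12 genes of voltage-gated and endolysosomal calcium channels 7 were tested, and 0 rose and 5 fell, with a median of -0.44 on the log2 scale beside 0.01 for all tested features, and -0.17 over all 12 with no filter. With a replicate block, and with any 1 library left out, 4 fell. Cacna1b and Cacna1c, pore genes of neuronal and cardiac calcium channels, fell by 0.76 and 0.68 on the log2 scale. The endolysosomal channel gene Tpcn2 fell by 0.65 and Cacna1h, a low-voltage-activated channel, by 0.44. Cacna1b had 1.58 and 1.67 FPKM in differentiation, against 3.47 and 3.44 FPKM in control.

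Of 15 spermatid marker genes 13 had a row and 9 were tested, and 6 rose and 0 fell, with a median of 0.62 on the log2 scale, against 0.27 over all 13 with no filter. All tested features had a median of 0.01, and 29.6% of them rose and 27.0% fell. Of the 6, Acr, Tnp2 and Prm1 reached the 0.5 FPKM mean only through their differentiation libraries. At a mean of at least 2 FPKM 3 rose, and 2 were called lower after median centring and after quantile normalization. Acr, the acrosomal protease, had 9.05 and 9.80 FPKM in differentiation, against 0.410 and 0.290 FPKM in control, and Odf2, also of sperm tail fibres, had 13.8 and 14.3 FPKM in differentiation, against 3.28 and 3.71 FPKM in control. Prm1, a protamine of condensing spermatids, had 0.960 and 0.942 FPKM in differentiation, against 0.329 and 0.207 FPKM in control, and rose by 0.62 on the log2 scale from 8 and 9 fragments in differentiation and 3 and 2 in control. Odf1, of the outer dense fibres, was not tested and had 0.153 and 0.444 FPKM in differentiation, against 0.0930 and 0.263 FPKM in control. Other genes of the list had lower means in differentiation and did not pass the test. Izumo1, a sperm protein needed for fusion with the egg, had 0.244 and 0.460 FPKM in differentiation, against 1.06 and 0.728 FPKM in control (limma adjusted p = 0.0526, and 1.55e-03 with limma-voom without a filter). Tssk2, a testis kinase, had 1.83 and 1.95 FPKM in differentiation, against 2.74 and 2.37 FPKM in control (limma adjusted p = 0.0649). Acrv1, an acrosomal protein, had 0.972 and 0.714 FPKM in differentiation, against 1.11 and 0.797 FPKM in control, and its groups overlapped. The summed level of the 13 was 41.4 and 42.7 FPKM in differentiation, against 13.1 and 11.98 FPKM in control. Most of the differentiation sum came from Acr, Odf2 and Crem, and no other gene of the list exceeded 2.74 FPKM in any library. Crem had 10.7 and 10.3 FPKM in differentiation, against 2.14 and 2.28 FPKM in control. The sum therefore does not describe the list as a whole, and the part of spermatids in the levels of the 9 genes was not tested.

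**Figure D5:**
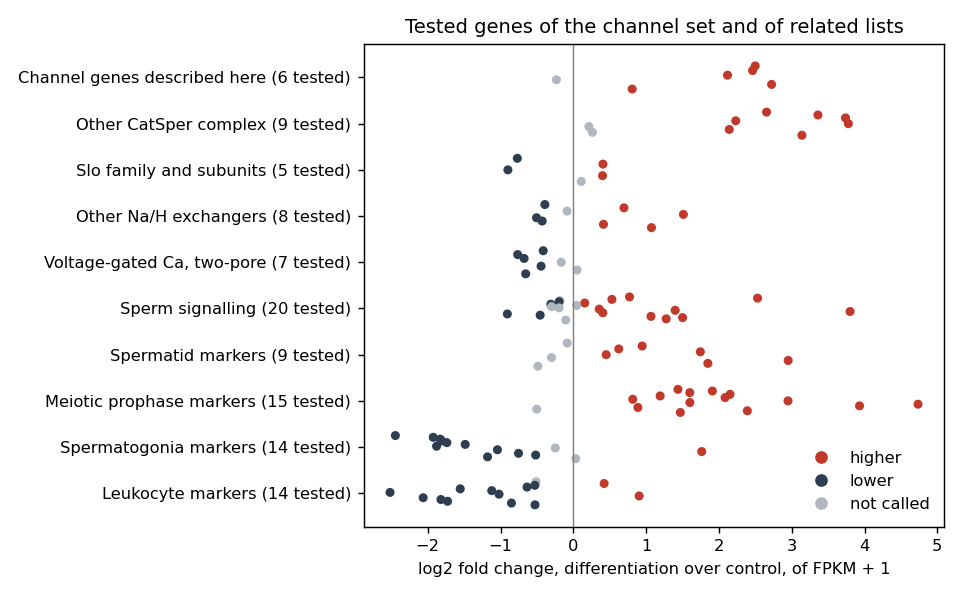
log2 fold change of FPKM + 1, differentiation over control, for each tested gene of the 9 channel and exchanger genes and of related lists (red, called higher; dark, called lower; grey, not called). The other CatSper genes reach 3.78, the voltage-gated and endolysosomal calcium channels have no gene called higher, and the leukocyte markers lie mostly to the left.

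The authors' deposited table gave log2 fold changes of 3.26 for Catsper2, 4.29 for Catsperb, 2.66 for Catsperd, 4.77 for Slc9c1 and 0.97 for Hvcn1. For Kcnu1 the authors' deposited table gave -0.44 with an adjusted p of 0.229, and for Catsper1, Catsper3 and Catsper4 it gave 0.33, -0.07 and 2.33 with adjusted p of 0.828, 0.962 and 0.194. Those values come from the same libraries and are no independent check.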

How the data were processed

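The submitters' processing notes name HISAT2 and GRCm38, and neither the annotation, the counting tool nor strand use is stated there. The authors deposited FPKM per feature and library, with their own log2 fold change and p-value from a test that is not named. Exonic lengths came from GENCODE M21 (31536 of 31600 identifiers matched), and 96.2% of values under 300 fragments became whole within 0.05 fragments. limma 3.58.1 in R 4.3.3 was run on log2(FPKM + 1) with an intensity trend and no term but group, for the 23138 features whose mean reached 0.5 FPKM, two-sided with Benjamini-Hochberg adjustment, with 2 residual and 2.14 prior degrees of freedom, and was tested on simulated data. The 9 genes, the lists and the settings were chosen with earlier results of these data known. All members were named, all CatSper and Slo genes, and up to 4 called genes of smallest p per other list, of which some are not reported here; Mybl1, Ptprc, Prm1, Odf1, Akap4, Cd79b, Aif1, Izumo1, Tssk2, Acrv1, Abhd2, Camk4, Prkar2a, Prkaca and the genes marked so were named after their values were seen. Protein sequence was not analysed here. Intervals cover counting error only. Python 3.11.15 with numpy 2.4.6, pandas 2.3.3, scipy 1.17.1 and matplotlib 3.10.9 was used.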

Additional observations from a re-analysis of the deposited data

How the results depend on the processing

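Alternatives were a pseudocount of 0.1 or 0.5, no filter or a mean of at least 2 FPKM, median centring, quantile normalization, no intensity trend, a replicate block, limma-voom on recovered fragments (with the filter, and without it as a setting added after seeing the data) and leaving out each library. Under all of them where the gene was tested, Catsper2, Catsperb, Catsperd, Slc9c1 and Hvcn1 remained higher (limma adjusted p at most 0.0221) and Kcnu1 was not called (limma adjusted p from 0.0550 to 0.557, log2 fold change -0.48 to -0.10). The log2 fold change ranged from 2.58 to 4.75 for Slc9c1 and from 2.33 to 4.30 for Catsperb, with the higher values at small pseudocounts and on fragments. Same-numbered libraries did not deviate together over the tested features (correlation -4.08e-04). That value cannot settle whether they share an origin, since counting noise of low features can hide a shared deviation. With the replicate block 6510 features rose and 5788 fell, against 6848 and 6246 without it, and no call among the 9 genes changed. Leaving out 1 library gave 5094 to 5583 higher and 4344 to 4634 lower. Depth limits Catsper1, Catsper3 and Catsper4, whose changes rest on 1 to 12 fragments a library.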
